A study of Mus musculus with 31 samples.

Results

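Genes read in muscle as marks of atrophy and cellular stress were followed through RNA-seq of mouse masseter muscle (MM), the main chewing muscle, after injection of an inflammatory or a tissue-damaging agent. The 10 genes, Fbxo32, Trim63, Foxo1, Foxo3, Klf15, Cdkn1a, Gadd45a, Mt1, Mt2 and Fkbp5, were chosen by name among the 22609 gene symbols counted in every library, and each had counts in all 31 libraries, from 133 reads upward. Each library came from the MM of 1 male C57BL/6J mouse, 2 to 4 months old according to the methods. Complete Freund's adjuvant (CFA), an oil emulsion with killed mycobacteria, was given to the groups CFA_1d and CFA_5d (n = 3 each, 1 and 5 days by title), and vehicle to CFA_control (n = 3). Collagenase type 2 (Col), which digests collagen, was given at 0.2U to the groups C_1C and C_RPC (n = 4 each) and at 10U to 2d_post_col (n = 4), MM_Co_6d (n = 3) and 12d_post_col (n = 4), with 3 vehicle mice titled Contr. The labels call the Contr mice vehicle without naming the Col groups they belong to, and they were taken here as the vehicle of all of them. The MM_Co_6d titles follow another pattern than those of the other Col groups. Whether these mice were handled with the Contr mice or with the other 10U Col mice is not stated. Handling therefore cannot be told apart from treatment or time in any comparison with MM_Co_6d. The 2 and 12 days in the titles are 1 and 14 days in the text of the paper, so the titles serve here as names only. The labels do not give the collection day of the vehicle mice or of either 0.2U group, nor the muscle fibre type or any sorting of cells: a library is whole dissected MM, in which fewer cells of a type and less RNA per cell cannot be told apart.

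Skeletal muscle that is unloaded, fasted, inflamed or exposed to glucocorticoids breaks down its own proteins. The transcription factors Foxo1 and Foxo3 are held in the cytoplasm by insulin and Akt signalling and, when released, switch on Fbxo32 (atrogin-1) and Trim63 (MuRF1), the muscle ubiquitin ligases by which atrophy is usually recognised. Klf15 and Fkbp5 are direct targets of the glucocorticoid receptor, Klf15 a transcription factor of amino acid and lipid use and Fkbp5 a co-chaperone that dampens the receptor. Cdkn1a (p21) stops the cell cycle and Gadd45a responds to DNA damage and stress, and both rise in denervated muscle. Mt1 and Mt2 are metallothioneins, small cysteine-rich proteins that bind zinc and copper and are induced by metals, glucocorticoids and inflammatory cytokines.

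The genes lie apart on mm9 except the metallothioneins, which are neighbours on the plus strand of chromosome 8, Mt2 at chr8:96696518-96697467 and Mt1 at chr8:96702989-96704225. Promoter sequence of 9 of the 10 genes was available from RefSeq (GRCm38.p6), all but Fbxo32. The 250 bases before the start are shown for Mt1 and Mt2, whose levels had the widest ranges over the libraries, and for Trim63, in whose promoter letters of both a FoxO and a glucocorticoid motif were found. Capitals mark matches to the metal response element core (TGCACNC or TGCGCNC), the FoxO core (GTAAACA) and the glucocorticoid response palindrome (GNACA, any 3 bases, TGTNC), each searched on both strands.
Mt2 (GRCm38.p6, chr8:94172368-94172617, plus strand): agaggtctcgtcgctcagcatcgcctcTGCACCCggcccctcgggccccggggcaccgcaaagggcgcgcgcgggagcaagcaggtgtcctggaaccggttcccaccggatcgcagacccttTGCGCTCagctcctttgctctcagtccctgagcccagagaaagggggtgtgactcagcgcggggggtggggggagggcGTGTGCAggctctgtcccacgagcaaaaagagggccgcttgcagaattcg
Mt1 (GRCm38.p6, chr8:94178839-94179088, plus strand): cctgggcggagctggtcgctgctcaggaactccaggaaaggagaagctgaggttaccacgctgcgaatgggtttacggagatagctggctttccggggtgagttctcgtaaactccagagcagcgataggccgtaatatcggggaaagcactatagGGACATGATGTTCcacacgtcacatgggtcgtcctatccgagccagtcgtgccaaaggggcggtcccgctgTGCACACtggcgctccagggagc
Trim63 (GRCm38.p6, chr4:134314870-134315119, plus strand): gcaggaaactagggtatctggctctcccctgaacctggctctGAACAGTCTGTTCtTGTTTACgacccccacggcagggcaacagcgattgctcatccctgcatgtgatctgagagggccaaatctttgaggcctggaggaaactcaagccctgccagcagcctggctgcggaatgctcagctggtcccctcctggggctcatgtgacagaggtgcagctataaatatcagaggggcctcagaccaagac

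Within these 250 bases Mt2 held 3 metal response element cores, 2 on the plus strand and 1 on the minus strand. Mt1 held 1, which began 23 bases before the start. Bases after the listed starts were not searched, so these are not counts for a whole promoter. Mt1 also held the glucocorticoid palindrome, GGACATGATGTTC, 94 to 82 bases before the start. In Trim63 the palindrome GAACAGTCTGTTC lay 208 to 196 bases before the start and the FoxO core on the minus strand 194 to 188 bases before it, with no overlap. Over the same 250 bases of all 32851 promoters in the table, 21.4% held the metal response element core, 3.17% the FoxO core and 0.387% the palindrome. Among the other members, only Klf15 and Foxo3 held a match, each of the metal response element core. These matches describe letters and not bound sites.

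Between 14843778 and 29076671 reads per library were counted on genes. Muscle fibre RNA was abundant in all 9 groups, as 14 muscle fibre markers (Acta1, Ckm, Myh4 and others) summed to between 41200 and 283000 CPM, with none at 0. Of the 31 libraries, 11 were closer in log2 CPM to another group than to their own. Of these, 3 are marked as standing apart: CFA_1d replicate 2 was closest to CFA_control, 2d_post_col replicate 4 to C_RPC, and 12d_post_col replicate 4 to MM_Co_6d. They were singled out after their values were seen, and the results that rest on them are given with and without them. CFA_control replicate 3 was also among the 11, with a mean r of 0.952 to C_RPC and 0.921 to its own group. It was not set apart, and the CFA_5d results below are given with and without it. All 3 Contr mice, the vehicle of every Col group, were among the 11 too and were not set apart. Replicates 1, 2 and 3 of Contr were closest to CFA_control, CFA_5d and C_RPC. Contr replicate 2 had a mean r of 0.976 to CFA_5d and 0.928 to its own group. For CFA_1d replicate 2 these were 0.97 to CFA_control and 0.947. Salivary gland markers (9 genes) varied within and between groups, from 10.6 to 127000 CPM in sum, and in CFA_5d they were at 48200 to 66000 CPM in every library against 70.8 to 6430 CPM in CFA_control, with Smgc the 1 marker of the list at 0 in every CFA library. Reads that fell on more than 1 gene were 0.559% to 0.703% of uniquely aligned reads in the 10U Col groups and 0.125% to 0.260% in all others. This difference coincides with 10U Col against Contr, so whatever set these reads and the treatment cannot be told apart there. All values per mouse below are read counts relative to library size (CPM), scaled by TMM over the 31 libraries. Without this scaling the median gene differed by up to 0.54 on the log2 scale (MM_Co_6d against Contr), and 0 of the called members changed direction. The members Fbxo32, Fkbp5, Foxo1 and Gadd45a overlap a gene model on the opposite strand, and the strand setting of the counting is not given in the sources used here.

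In vehicle MM the ubiquitin ligases stood highest. Per exon length, Fbxo32 had a mean of 108 RPKM in Contr, rank 388 among 21627 genes, and Trim63 88.9 RPKM, rank 482. Mt1, Cdkn1a, Klf15 and Mt2 followed at 37.2, 36.5, 32.2 and 27.9 RPKM, and Fkbp5, Gadd45a, Foxo1 and Foxo3 lay below 10 RPKM, with Foxo3 lowest at 2.77 RPKM. In CFA_control the order was alike at the top, with 405 RPKM for Fbxo32 and 229.9 RPKM for Trim63, though these vehicle mice differed widely from each other. Fbxo32 was at 2151, 878 and 280.4 CPM in the 3 CFA_control mice and at 382, 232 and 271 CPM in the 3 Contr mice. Across all 31 libraries, Mt2 spanned the widest range of the 10 genes, 123-fold from 6.52 to 802 CPM, and Foxo3 the narrowest, 2.09-fold.

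**Figure D1:**
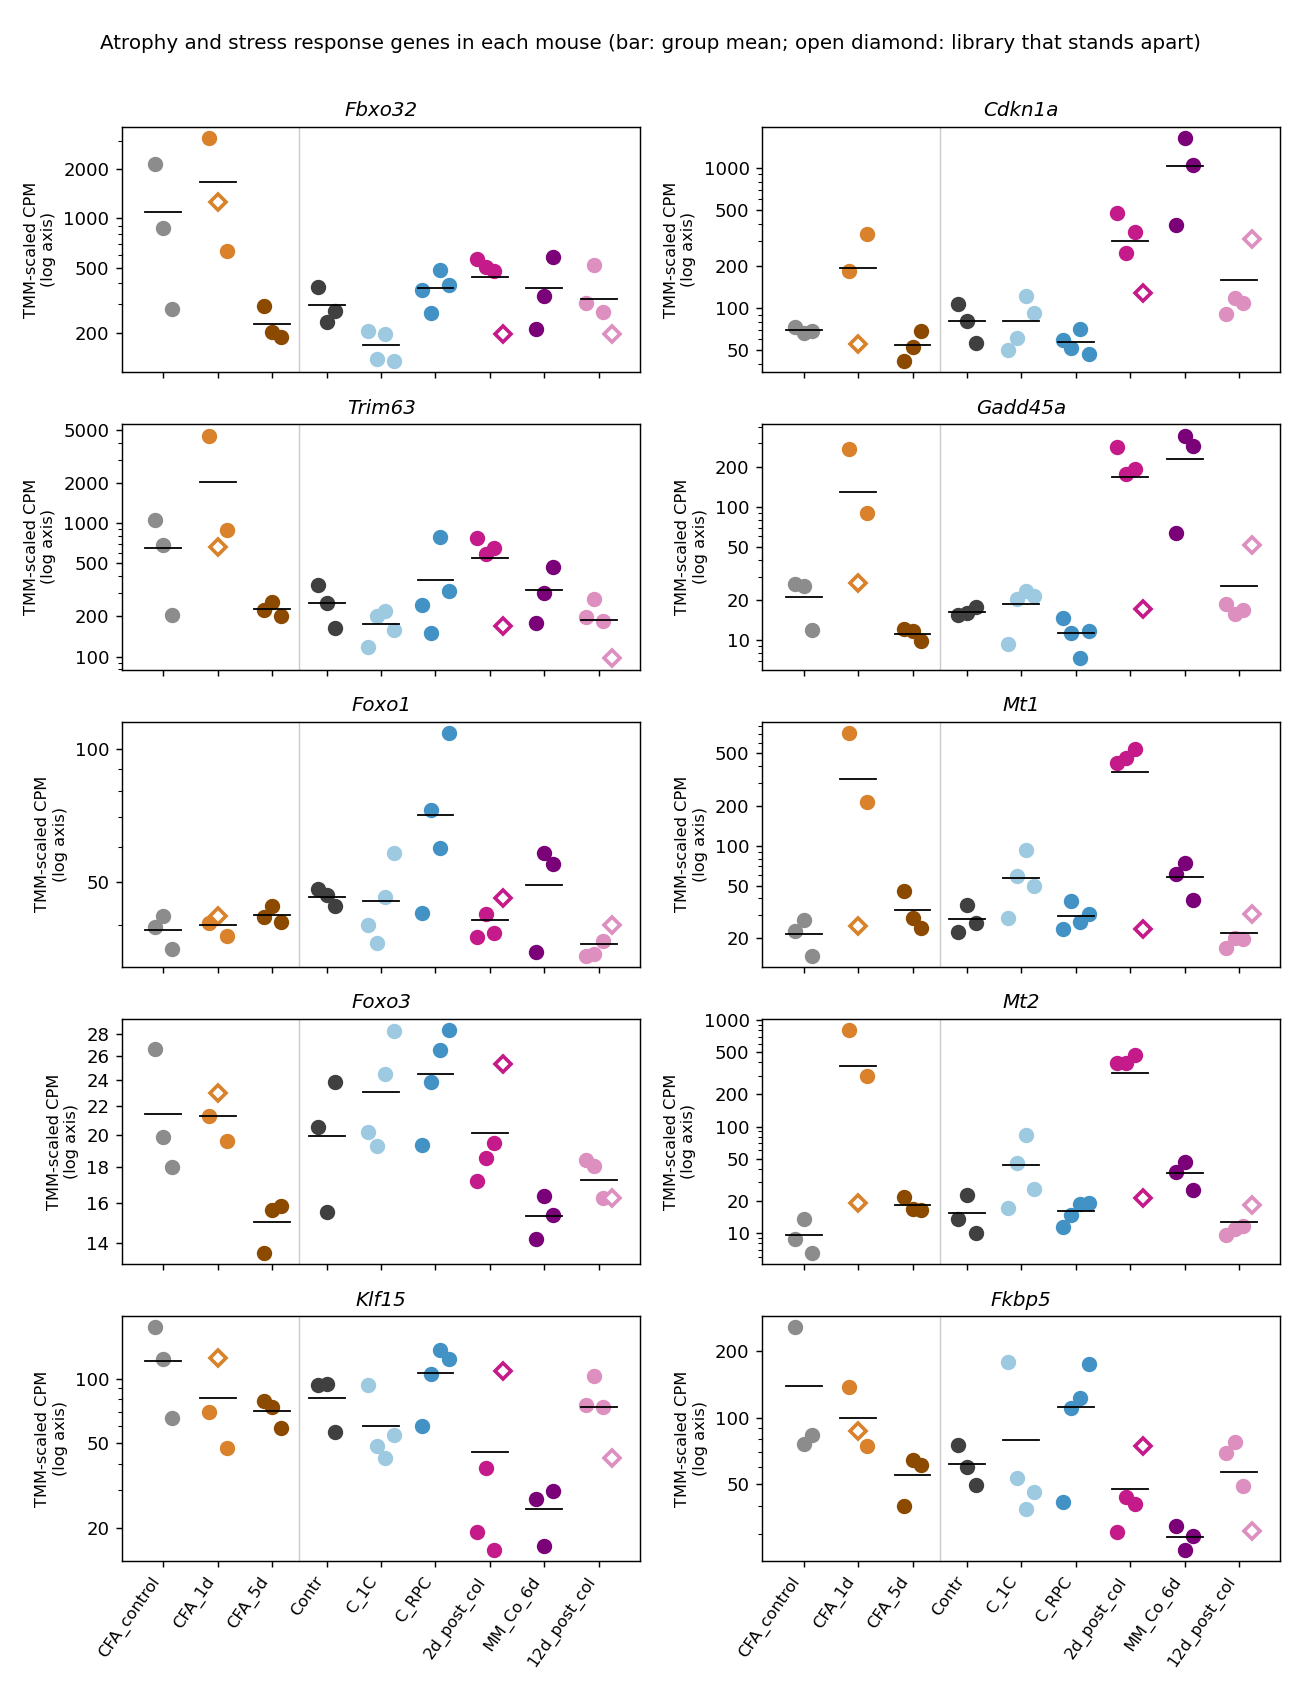
TMM-scaled CPM (log axis) of the 10 genes in each of 31 mice by group, CFA groups left of the grey line and Col groups right of it. Points are mice, bars are group means and open diamonds are the 3 libraries that stand apart. By group mean, Mt1 and Mt2 are highest in CFA_1d and 2d_post_col, Cdkn1a and Gadd45a in MM_Co_6d, and Klf15 and Fkbp5 are lowest there. The lowest single Klf15 value, 15.7 CPM, is in 2d_post_col, whose replicate 4 is at 108 CPM. Foxo1 and Foxo3 span narrow axes.

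Against their own vehicle group, members passed edgeR's test with all mice in for 1 of the 7 groups. In MM_Co_6d, 6 of 10 were called at an edgeR adjusted p under 0.05, where 27.3% of all 14281 genes tested were called. Of these, 4 rose (Cdkn1a, Gadd45a, Mt1 and Mt2; 14.0% of all genes were called higher) and 2 fell (Klf15 and Fkbp5; 13.3% called lower), and in the same 6 genes the groups did not overlap, as held for 47.0% of all genes. In the other 6 groups edgeR called 0 members. In 2d_post_col, where 2.22% of all genes were called, 4 members had an unadjusted p under 0.05 (33.3% of all genes), DESeq2 called 4 (23.1%) and 1 did not overlap (23.9%). In CFA_1d, where 0.0% of genes were called, these counts were 4 (4.22%), 2 (0.402%) and 2 (6.22%). In CFA_5d, with 1.11% of genes called, they were 6 (14.0%), 3 (6.41%) and 3 (19.9%). In C_1C (0.0% called) they were 3 (12.6%), 0 (3.58%) and 1 (9.76%), in C_RPC (0.0% called) 0 (13.5%), 0 (3.1%) and 1 (12.2%), and in 12d_post_col (1.23% called) 1 (17.4%), 0 (6.36%) and 1 (17.1%). The median log2 fold change of the 10 members was 1.04 in CFA_1d, 0.86 in 2d_post_col and 0.34 in MM_Co_6d, beside −0.01, 0.02 and 0.01 over all genes.

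**Figure D2:**
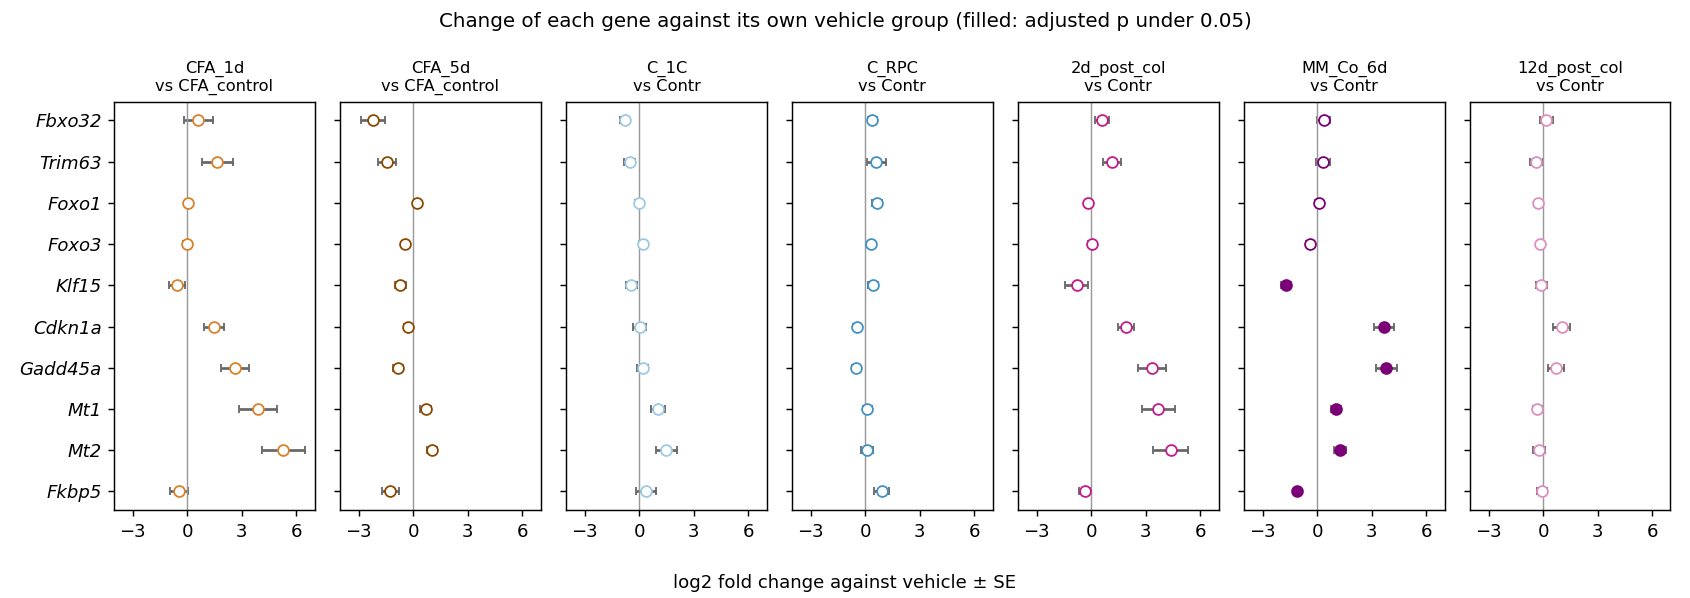
log2 fold change ± SE (edgeR) of each gene in each group against its own vehicle group. Filled points have an adjusted p under 0.05 and are found in MM_Co_6d alone, where 4 genes lie above 0 and 2 below it, while in CFA_1d and 2d_post_col the same 4 genes lie above 0 with wide errors and open points.

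Metallothionein levels were high in most mice soon after CFA or 10U Col, and in 1 mouse of each group they were not. Mt2 was at 802, 19.1 and 296 CPM in the 3 CFA_1d mice, against 8.87, 13.5 and 6.52 CPM in CFA_control. All CFA_1d mice lay above all vehicle mice, but replicate 2 only just. The log2 fold change was 5.28 ± 1.19 (SE), which did not pass adjustment by edgeR (adjusted p = 0.924) and did by DESeq2 (adjusted p = 0.00677). Without CFA_1d replicate 2 it was 5.84 ± 0.55 and Mt2 was called (edgeR adjusted p = 0.0275), the 1 member among 0.138% of all genes. Mt1 was at 712, 24.8 and 215 CPM in CFA_1d and at 22.7, 27.5 and 14.8 CPM in CFA_control, so replicate 2 lay within the vehicle range. Its log2 fold change of 3.88 ± 1.03 had an edgeR adjusted p of 0.924, and of 0.0509 without that library.

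In 2d_post_col the same pattern was seen with 3 mice high and 1 at the vehicle level. Mt2 was at 392, 395, 468 and 21.4 CPM and Mt1 at 422, 462, 538 and 23.7 CPM, replicate 4 being the last in each. The Contr mice had 13.7, 22.7 and 10.1 CPM of Mt2 and 22.3, 35.6 and 26.1 CPM of Mt1. With all 4 mice the log2 fold changes were 4.38 ± 0.96 for Mt2 and 3.70 ± 0.91 for Mt1 (edgeR adjusted p = 0.0533 and 0.0588). Without replicate 4 they were 4.77 ± 0.33 and 4.09 ± 0.24 (edgeR adjusted p = 0.000453 and 0.000403), 2 of 8 members called where 36.3% of all genes were. The change in CFA_1d minus that in 2d_post_col was tested as an interaction, in which 0 of 10 members and 0.0946% of all genes were called, 0 members had an unadjusted p under 0.05 (6.83% of all genes) and DESeq2 called 0 (0.73%). For Mt2 the 95% interval of that difference ran from −1.89 to 3.69 on the log2 scale.

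In MM_Co_6d both metallothioneins rose by about 1 log2 unit. Mt1 was at 61.3, 73.6 and 39.2 CPM and Mt2 at 37.7, 46.0 and 25.3 CPM, each mouse above every Contr mouse. The log2 fold changes were 1.05 ± 0.27 for Mt1 and 1.24 ± 0.33 for Mt2 (edgeR adjusted p = 0.0296 and 0.0323). Both calls were lost without Contr replicate 1 or 3 or MM_Co_6d replicate 1 or 2 (edgeR adjusted p up to 0.117 and 0.121) and in 1 fit over all 31 libraries (0.278 and 0.237), and that of Mt1 also with a replicate block (0.0507). Compared directly with 2d_post_col, Mt2 differed by −3.14 ± 0.89 on the log2 scale (edgeR adjusted p = 0.0671) and Mt1 by −2.65 ± 0.88 (0.102). Without 2d_post_col replicate 4 both were called, at −3.54 ± 0.23 and −3.04 ± 0.25, among 28.8% of all genes. In 12d_post_col Mt1 was at 16.9, 20.1, 19.9 and 30.4 CPM and Mt2 at 9.59, 11.1, 11.6 and 18.4 CPM, which overlapped the Contr mice.

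Mt1 and Mt2 moved together, but not in a constant ratio. Mt2 counts were 0.389 to 0.637 of Mt1 counts in the Contr mice and 0.39 to 0.493 in CFA_control, while they were 0.855 to 0.931 in 2d_post_col and 0.77 to 1.38 in CFA_1d. In MM_Co_6d the ratio was 0.615 to 0.645 and in 12d_post_col 0.55 to 0.606. In 2d_post_col replicate 4 and CFA_1d replicate 2, whose levels were near vehicle, it was 0.903 and 0.77, above every vehicle mouse. This was not particular to these groups. The ratio ran from 0.521 to 0.901 in C_1C, 0.384 to 0.715 in C_RPC and 0.474 to 0.689 in CFA_5d. Some mice of each therefore also lay above every vehicle mouse. No 50-base stretch of the transcripts of either gene occurred in a protein-coding transcript of another gene. Other transcripts were not searched.

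**Figure D3:**
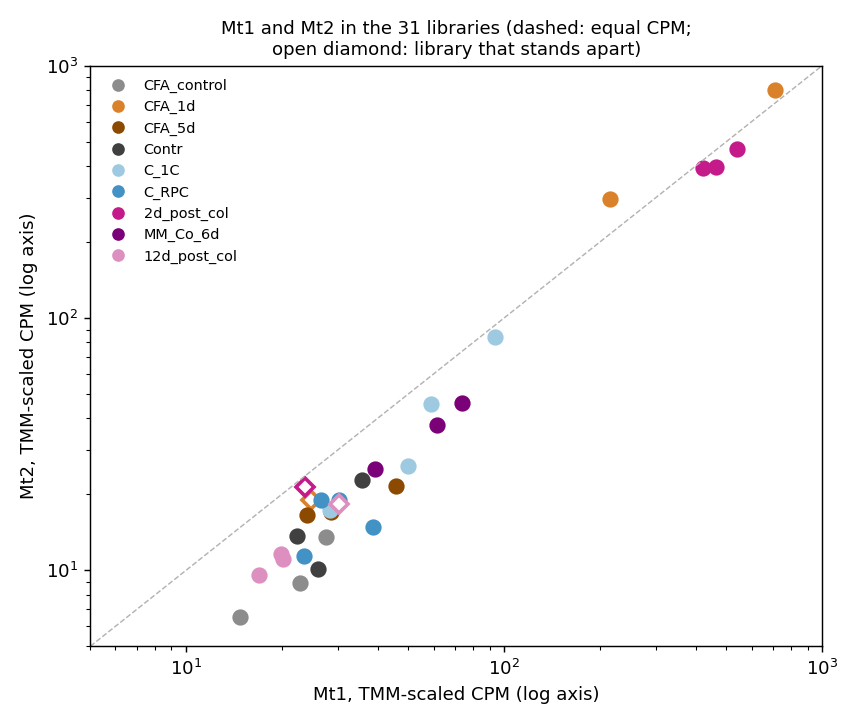
Mt1 against Mt2 (TMM-scaled CPM, both axes log) in the 31 libraries, coloured by group. The dashed line marks equal CPM, not equal level per length. In the plot, 5 libraries of CFA_1d and 2d_post_col lie above 200 CPM in both genes, apart from all others, and the open diamonds of these groups lie among the vehicle mice, nearer to the line.

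The cell cycle and damage genes rose in MM_Co_6d. Cdkn1a was at 391, 1629 and 1058 CPM in MM_Co_6d and at 106, 81.1 and 56.2 CPM in Contr, with no overlap. Gadd45a was at 63.8, 342 and 284 CPM in MM_Co_6d and at 15.5, 15.9 and 17.9 CPM in Contr, again with all treated mice above all vehicle mice. The log2 fold changes were 3.66 ± 0.54 for Cdkn1a and 3.80 ± 0.58 for Gadd45a (edgeR adjusted p = 0.00564 and 0.00624), and both were called in all 12 alternatives run, leaving out each mouse in turn included (adjusted p up to 0.0331 and 0.0267). As folds these were 12.6 and 13.9, the largest among the 10 genes in that group.

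In 2d_post_col, Gadd45a was at 279, 175, 193 and 17.2 CPM, with replicate 4 last and within the Contr range. Cdkn1a was at 476, 248, 348 and 129 CPM, so that even replicate 4 lay above the Contr mice. The log2 fold changes of 3.34 ± 0.79 for Gadd45a and 1.91 ± 0.44 for Cdkn1a had edgeR adjusted p of 0.056 and 0.0548, and of 0.000407 and 0.00299 without replicate 4. From 2d_post_col to MM_Co_6d, Cdkn1a differed by 1.76 ± 0.55 (edgeR adjusted p = 0.0876, and 0.0488 without 2d_post_col replicate 4), and in both Cdkn1a and Gadd45a the levels of the groups overlapped.

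In 12d_post_col, Cdkn1a was at 91.2, 119, 109 and 312 CPM and Gadd45a at 18.8, 15.6, 16.9 and 51.5 CPM, replicate 4 being far above the other 3 in both. From MM_Co_6d to 12d_post_col Cdkn1a and Gadd45a fell, with log2 fold changes of −2.68 ± 0.58 and −3.14 ± 0.64 (edgeR adjusted p = 0.0199 and 0.0177). Both calls were lost without 12d_post_col replicate 1, 2 or 3 or MM_Co_6d replicate 2, that of Cdkn1a also without MM_Co_6d replicate 3, with edgeR adjusted p up to 0.0866 and 0.0755. Without 12d_post_col replicate 4 the falls were −3.27 ± 0.47 and −3.75 ± 0.55 (edgeR adjusted p = 0.00112 and 0.00125).

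After CFA, Gadd45a was at 271, 26.8 and 89.9 CPM on CFA_1d and at 26.3, 25.5 and 11.9 CPM in CFA_control, each treated mouse above each vehicle mouse. Cdkn1a was at 185, 55.5 and 339 CPM on CFA_1d and at 73.3, 66.6 and 68.5 CPM in CFA_control, with replicate 2 below vehicle. The log2 fold changes of 2.62 ± 0.77 and 1.47 ± 0.56 did not pass edgeR (adjusted p = 0.924 for both), while DESeq2 called Gadd45a (adjusted p = 0.0223). In CFA_5d Gadd45a was at 12.1, 11.8 and 9.85 CPM. From CFA_1d to CFA_5d it fell by 3.45 on the log2 scale (−3.45 ± 0.75, edgeR adjusted p = 0.0398), a call that was lost without CFA_1d replicate 3 or without any 1 of the CFA_5d mice (adjusted p up to 0.183), and with a replicate block (0.066).

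The glucocorticoid targets Klf15 and Fkbp5 fell in MM_Co_6d. Klf15 was at 27.3, 16.5 and 29.7 CPM in MM_Co_6d and at 93.6, 94.0 and 56.3 CPM in Contr. Fkbp5 was at 32.4, 25.3 and 29.4 CPM in MM_Co_6d and at 75.4, 60.0 and 49.6 CPM in Contr. In both genes all 3 treated mice lay below all vehicle mice. Klf15 fell by 1.72 and Fkbp5 by 1.08 on the log2 scale (−1.72 ± 0.29 and −1.08 ± 0.19, edgeR adjusted p = 0.00839 and 0.01). The Klf15 call held without any single mouse, and that of Fkbp5 was lost without MM_Co_6d replicate 2 (adjusted p = 0.0533) and in the fits over 31 and 28 libraries (0.124 and 0.0995).

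In 2d_post_col, Klf15 was at 19.2, 38.0, 15.7 and 108 CPM and Fkbp5 at 30.5, 43.9, 40.9 and 74.6 CPM. Replicate 4, the last, lay above all vehicle mice in Klf15 and among them in Fkbp5, and the other 3 lay below all of them. With all 4 mice Klf15 differed by −0.80 ± 0.64 (edgeR adjusted p = 0.403), and without replicate 4 by −1.73 ± 0.37 (0.0117), and Fkbp5 without it by −0.67 ± 0.20 (0.0381). In 12d_post_col Klf15 was at 75.2, 103, 73.8 and 42.3 CPM and Fkbp5 at 69.6, 77.9, 49.4 and 30.8 CPM, replicate 4 again last and nearest to MM_Co_6d. From MM_Co_6d to 12d_post_col Klf15 rose by 1.60 ± 0.33 and Fkbp5 by 0.99 ± 0.30 on the log2 scale (edgeR adjusted p = 0.0176 and 0.0469). Both calls were lost without 12d_post_col replicate 3 or MM_Co_6d replicate 1 or 2, and that of Fkbp5 also without 12d_post_col replicate 1 or 2 or MM_Co_6d replicate 3 (adjusted p up to 0.0731 and 0.165). Over 28 libraries Fkbp5 was not called either (0.0651).

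Fbxo32 and Trim63 were not called by edgeR against vehicle in any group with all mice in. In MM_Co_6d Fbxo32 was at 211, 336 and 579 CPM and Trim63 at 178, 300.5 and 472 CPM, spread around the Contr mice (Trim63 at 344, 250.3 and 164 CPM). The log2 fold changes were 0.35 ± 0.38 with a 95% interval from −0.39 to 1.09 for Fbxo32, and 0.33 ± 0.39 with an interval from −0.43 to 1.10 for Trim63 (edgeR adjusted p = 0.501 and 0.538). In 2d_post_col Fbxo32 was at 563, 506, 478 and 195 CPM and Trim63 at 778, 585, 649 and 169.9 CPM. The first 3 mice lay above all Contr mice and replicate 4 among or below them. With 4 mice the log2 fold changes were 0.58 ± 0.37 and 1.13 ± 0.50 (edgeR adjusted p = 0.302 and 0.155), and without replicate 4 both were called at 0.82 ± 0.22 and 1.42 ± 0.28 (0.025 and 0.00851). With the replicate number as a block both were called, at 0.84 and 1.47 (edgeR adjusted p = 0.0389 and 0.0144). Contr has no replicate 4, so in that fit replicate 4 of 2d_post_col adds nothing to the difference. The numbers are also not shown to pair the mice.

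In CFA_1d Fbxo32 was at 3099, 1266 and 632 CPM and Trim63 at 4556, 669.8 and 896 CPM. Trim63 in CFA_control was at 1067, 687 and 207 CPM, so both genes overlapped the widely spread vehicle mice (log2 fold changes 0.61 ± 0.78 and 1.66 ± 0.85, edgeR adjusted p = 0.949 and 0.924). In CFA_5d the levels were low and close together, at 292, 200.3 and 188 CPM for Fbxo32 and at 223, 257 and 201 CPM for Trim63. From CFA_1d to CFA_5d, where 2 of 10 members (Fbxo32 and Gadd45a) and 5.84% of all genes were called, Fbxo32 fell by 2.80 on the log2 scale (−2.80 ± 0.57, edgeR adjusted p = 0.0321). The call was lost without any 1 of the CFA_5d mice (adjusted p up to 0.169). Trim63 differed by −3.10 ± 0.73 with an edgeR adjusted p of 0.0535, and 5 of 10 members did not overlap between these groups, as did 26.9% of all genes.

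Against CFA_control, the CFA_5d differences of Fbxo32 and Trim63 were −2.19 ± 0.66 and −1.44 ± 0.51 (edgeR adjusted p = 0.179 and 0.26). DESeq2 called both (adjusted p = 0.0443 and 0.0225) and also Mt2 (0.0276), and the fit over 28 libraries called Fbxo32 (edgeR adjusted p = 0.0391). In the fit of these groups alone the edgeR calls changed without CFA_control replicate 3, whose 280.4 CPM of Fbxo32 and 207 CPM of Trim63 lay within the CFA_5d range and which also had the highest salivary gland marker sum of its group, 6430 CPM, and the lowest muscle fibre marker sum, 134000 CPM. Without it 6 members were called, Mt2 higher and Fbxo32, Trim63, Klf15, Gadd45a and Fkbp5 lower, with edgeR adjusted p of 0.00135 for Fbxo32 and 0.00066 for Trim63, where 15.6% of all genes were called. With all mice, Mt2 was at 21.7, 17.0 and 16.5 CPM in CFA_5d, above every CFA_control mouse (log2 fold change 1.02 ± 0.27, edgeR adjusted p = 0.135). Fkbp5 was at 40.0, 64.3 and 61.2 CPM in CFA_5d and at 255, 76.4 and 83.6 CPM in CFA_control, with no overlap (−1.25 ± 0.48, edgeR adjusted p = 0.294). The salivary gland markers given above also separated CFA_5d from CFA_control, and their part in these differences was not tested. Trim63 counts per Fbxo32 count were 0.869 to 1.38 in 2d_post_col and 0.496 to 0.688 in 12d_post_col, with no overlap between these groups.

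Foxo1 and Foxo3 transcripts were the flattest of the 10. Foxo1 stayed within 34.0 to 48.2 CPM in the CFA groups, both vehicle groups, 2d_post_col and 12d_post_col. It reached 58.1 CPM in C_1C and 108.5 CPM in C_RPC, and was at 34.7, 58.05 and 54.95 CPM in MM_Co_6d. Foxo3 stayed between 13.5 and 28.3 CPM in all 31 libraries. Neither was called in any of the 12 comparisons. The smallest unadjusted p against vehicle was 0.0384 for Foxo1 in 12d_post_col (log2 fold change −0.30 ± 0.12, edgeR adjusted p = 0.261) and 0.0455 for Foxo3 in CFA_5d (−0.45 ± 0.19, 0.342). The direction of the former turned to 0.03 with unscaled CPM. The activity of these factors is set after transcription and was not measured.

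No member was called by edgeR or DESeq2 against vehicle after 0.2U Col. In C_1C Mt2 was at 17.4, 45.6, 84.1 and 25.9 CPM and Mt1 at 28.3, 58.8, 93.3 and 49.7 CPM, overlapping Contr (log2 fold changes 1.50 ± 0.57 and 1.05 ± 0.39, edgeR adjusted p = 0.357 and 0.349). Fbxo32 was lower in each C_1C mouse, at 203, 138, 196 and 134 CPM, than in each Contr mouse (−0.78 ± 0.25, edgeR adjusted p = 0.294). In C_RPC it was at 367, 263, 481 and 393 CPM. The 1 member without overlap between C_RPC and Contr was Gadd45a, at 14.6, 11.3, 7.33 and 11.8 CPM in C_RPC, below each Contr mouse. Between C_RPC and C_1C, where edgeR called 0.0% of genes and 0 members, 7 members had an unadjusted p under 0.05 (10.0% of all genes), DESeq2 called 1 (2.18%) and 1 did not overlap (4.31%). That member was Fbxo32, at 1.17 ± 0.23 on the log2 scale (edgeR adjusted p = 0.244, DESeq2 adjusted p = 0.00028). The C_1C libraries carried keratinocyte markers (9 genes) at 333 to 735 CPM in sum and the C_RPC libraries salivary gland markers at 10700 to 127000 CPM, whose part in this difference was not tested.

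The comparisons within the 10U Col series share the level of ambiguous reads and so lie inside it. Whether the MM_Co_6d mice were handled with the others of the series is not stated. From 2d_post_col to MM_Co_6d 0 members and 8.73% of all genes were called, with 5 members at an unadjusted p under 0.05 (26.6%), 3 called by DESeq2 (18.7%) and 1 not overlapping (23.7%). From MM_Co_6d to 12d_post_col 6 of 10 members and 26.4% of all genes were called, and 5 members did not overlap, as did 36.5% of genes. The 6 were those called in MM_Co_6d against Contr, each in the opposite direction, and both comparisons share the MM_Co_6d mice. Mt1 and Mt2 fell by 1.39 and 1.50 on the log2 scale (−1.39 ± 0.26 and −1.50 ± 0.27, edgeR adjusted p = 0.015 and 0.0143). Without MM_Co_6d replicate 2, the mouse with the highest Cdkn1a, Gadd45a, Mt1 and Mt2, 0 of the 6 were called (adjusted p from 0.0702 upward). Without 12d_post_col replicate 3 only Mt2 was, without replicate 1 or 2 it was Klf15, Mt1 and Mt2, and without replicate 4 Foxo1 joined the 6, where 54.2% of all genes were called. Without MM_Co_6d replicate 1, Klf15 and Fkbp5 were lost and Foxo1 was called, and without replicate 3 Cdkn1a and Fkbp5 were lost.

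Cell type markers moved with these groups. Muscle fibre markers summed to 150000 to 225000 CPM in Contr, 41200 to 91800 in 2d_post_col, 54500 to 94400 in MM_Co_6d and 75700 to 180000 in 12d_post_col. Macrophage and monocyte markers (10 genes) summed to 102 to 419 CPM in Contr and 1220 to 2400 CPM in MM_Co_6d, and 8 myogenic progenitor markers to 357 to 1030 CPM and 2680 to 4580 CPM. Salivary gland markers summed to 66.6 to 47100 CPM in Contr and 10.6 to 31.6 CPM in MM_Co_6d, where Smgc and Prb1 were at 0. Fibroblast markers (8 genes, 1 called higher) summed to 1520 to 9170 CPM in Contr and 11200 to 18500 CPM in MM_Co_6d. In MM_Co_6d, 5 of 6 keratinocyte, 5 of 8 neutrophil and 3 of 8 endothelial markers tested were called lower (13.3% of all genes). Bone markers had 3 of 8 called lower and 1 higher, and cartilage and tendon markers 2 of 6 lower and 1 higher. Of T and NK cell markers, 2 of 5 were called higher (14.0% of all genes). Adipocyte markers (8 genes, 3 called lower in MM_Co_6d) summed to 1390 to 1660 CPM in Contr and 479 to 819 CPM in MM_Co_6d. They moved with Klf15 and Fkbp5 also in 2d_post_col, where replicate 4 had the highest sum, 1500 CPM, above the lowest at 530 CPM. In 12d_post_col replicate 4 had the lowest, 1030 CPM. The match did not hold throughout. In C_1C the sums were 1570 to 3770 CPM, with log2 fold changes of −0.43 for Klf15 and 0.39 for Fkbp5. In C_RPC they were 1710 to 2610 CPM, with 0.44 and 0.92. In CFA_1d the lowest sum, 609 CPM, was in replicate 1, and the lowest Klf15 in replicate 3. In the libraries that stand apart some of the markers moved with the members. In CFA_1d, replicate 2 had the lowest macrophage marker sum of its group, 216 CPM, and the highest muscle fibre and adipocyte marker sums, 200000 and 1800 CPM. In 2d_post_col, replicate 4 had the highest muscle fibre and salivary gland marker sums, 91800 and 53900 CPM, and 12d_post_col replicate 4 had the lowest muscle fibre marker sum of its group, 75700 CPM, with 1760 CPM of myogenic progenitor markers. The part of these shifts in the members' changes was not tested.

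The 7 lists of related genes, holding none of the members, describe the pathways around them. In MM_Co_6d, glucocorticoid-responsive genes had 8 of 19 tested called lower and 0 higher (13.3% of all genes lower) and a median log2 fold change of −0.72 against 0.01 over all genes. Per1, a clock gene, fell by 2.63 (−2.63 ± 0.17, from 90.9 ± 7.07 to 14.7 ± 1.87 CPM, SD, n = 3 each, edgeR adjusted p = 0.000548). Tsc22d3, which encodes the glucocorticoid-induced leucine zipper, fell by 2.15 (−2.15 ± 0.32, adjusted p = 0.00615), and Mstn (myostatin), a brake on muscle growth, by 1.96 (−1.96 ± 0.50, 0.0286). From MM_Co_6d to 12d_post_col, where 26.4% of all genes were called in either direction, 9 of 19 were called higher and 0 lower, with the MM_Co_6d mice in common. In 2d_post_col and 12d_post_col against Contr the list had 2 and 1 genes called higher and 0 lower, named with the other list genes of those groups.

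Of p53 and DNA damage targets, 7 of 17 tested were called higher in MM_Co_6d (14.0% of all genes higher) and 1 lower. Pmaip1 (Noxa) rose by 5.12 ± 0.78 on the log2 scale, the TNF receptor family gene Eda2r by 2.06 ± 0.41 and Bbc3 (Puma) by 1.80 ± 0.25 (edgeR adjusted p = 0.0064, 0.0136 and 0.00481). Gadd45g, a paralog of Gadd45a, fell by 2.73 (−2.73 ± 0.34, from 220.3 ± 67.1 to 33.1 ± 11.6 CPM, SD, n = 3 each, adjusted p = 0.00343). Of other ubiquitin ligases of muscle, 2 of 14 were called higher and 5 lower. Fbxo30, which is induced in denervated muscle, rose by 1.71 ± 0.31 and Mdm2, the p53 ligase, by 1.71 ± 0.38. Stub1 (CHIP), Fbxo31 and Trim54 (MuRF3) fell by 1.72, 1.30 and 1.19 (−1.72 ± 0.17, −1.30 ± 0.26 and −1.19 ± 0.23, edgeR adjusted p between 0.00212 and 0.0143).

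The FoxO and stress lists gave mixed counts at that stage. Of the insulin, Akt and FoxO axis, 2 of 18 were called higher, Igf1 (2.37 ± 0.42), the growth factor upstream of Akt, and Akt1 (0.81 ± 0.16), and 2 lower, Foxo4 (−1.19 ± 0.23) and Irs2 (−1.15 ± 0.28). Of autophagy genes, 1 of 17 was called higher, the lysosomal protease gene Ctsl (0.80 ± 0.20), and 4 lower, among them Map1lc3b (−1.22 ± 0.22), Ulk1 (−1.06 ± 0.19) and Pik3c3 (−0.62 ± 0.17). Of the integrated stress response, 3 of 16 were called higher, the secreted factors Gdf15 (8.82 ± 1.10) and Fgf21 (7.28 ± 0.77), both nearly silent in Contr at 0.111 and 0.0218 CPM, and Atf3 (1.28 ± 0.35), and 2 lower, Chac1 (−1.73 ± 0.46) and Herpud1 (−1.26 ± 0.24). Of metal and oxidative stress genes, which hold Mt3 and Mt4, 2 of 19 were called higher, Hmox1, which breaks down haem (2.75 ± 0.39), and the zinc importer gene Slc39a14 (0.52 ± 0.16), and 2 lower, Mt4 (−3.68 ± 0.78, from a mean of only 1.1 CPM) and Sod2 (−0.95 ± 0.26).

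**Figure D4:**
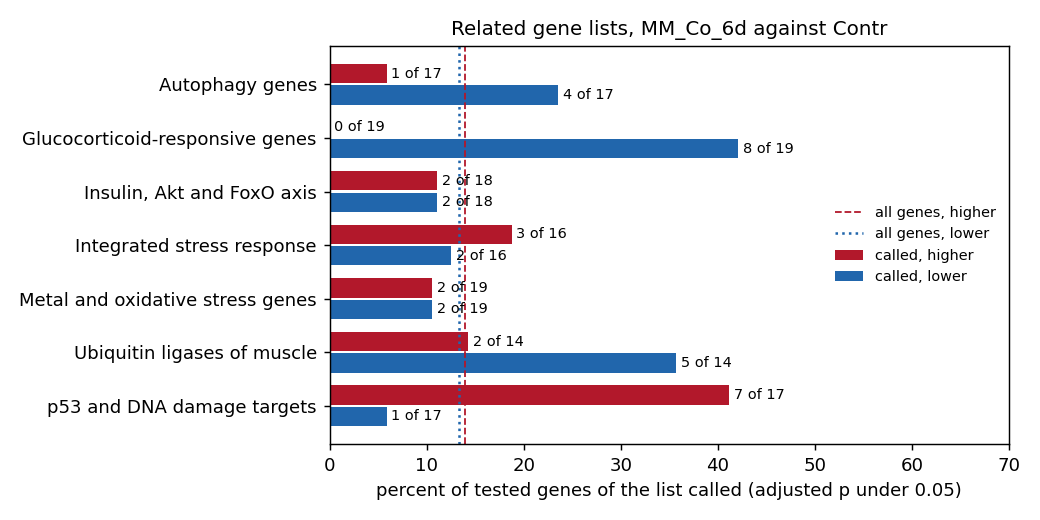
Percent of the tested genes of 7 related lists called higher or lower in MM_Co_6d against Contr (edgeR adjusted p under 0.05), with counts beside the bars. Dashed and dotted lines give the share of all 14281 genes called higher (14.0%) and lower (13.3%). Glucocorticoid-responsive genes reach 8 of 19 on the lower side and p53 and DNA damage targets 7 of 17 on the higher side.

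In 2d_post_col the 7 lists, with 14 to 19 tested genes each, held 7 called genes, where 2.22% of all genes were called. Hmox1 rose by 4.41 ± 0.70 on the log2 scale, from 15.8 ± 4.26 CPM (SD, n = 3) to 336 ± 196 CPM (SD, n = 4), and the zinc importer gene Slc39a10 by 1.08 ± 0.21 (edgeR adjusted p = 0.0393 and 0.0483). Cebpb and Cebpd, transcription factors of the glucocorticoid-responsive list that also act in the acute phase, rose by 3.10 ± 0.36 and 1.77 ± 0.29, and Gdf15 and Atf3 by 6.22 ± 1.04 and 3.52 ± 0.71 (edgeR adjusted p between 0.0184 and 0.0497). Stub1 fell by 1.58 (−1.58 ± 0.17, 0.00973). In 12d_post_col, where 1.23% of all genes were called, 3 list genes were, Cebpb (2.37 ± 0.36), Slc39a10 (0.89 ± 0.16) and Stub1 (−1.78 ± 0.15). Stub1 was lower in all 3 10U Col groups, which share the Contr mice and the level of ambiguous reads. In CFA_1d, C_1C and C_RPC edgeR called 0.0% of all genes, so no list gene could be among them. In CFA_5d, where 1.11% of all genes were called, no list gene was.

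Patterns of change over the 7 comparisons with vehicle were compared by mean absolute difference in log2 fold change among 13363 genes. Nearest to Cdkn1a were Col19a1 (0.282) and the muscle acetylcholine receptor subunit genes Chrnb1 (0.357) and Chrna1 (0.359). Nearest to Gadd45a were Junb (0.414), Ampd3 (0.504) and Cdkn1a (0.545). Sh2d5 was nearest to both Mt1 (0.347) and Mt2 (0.33), with each metallothionein second for the other (0.45), followed by Card14 for Mt1 (0.479) and Mustn1 for Mt2 (0.506). Nearest to Klf15 were Slc27a1 (0.102), a fatty acid transporter gene, Lyz1 (0.117) and Pde4d (0.202), and to Fkbp5 Glul (0.2), Mmp28 (0.224) and Kcns3 (0.225). The 7 comparisons share 2 vehicle groups, and these distances are descriptions without a test.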

How the data were processed

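Per the labels and the methods, stranded poly(A) libraries of mouse masseter were sequenced as 50-base single-end reads, and the authors used bcl2fastq, TopHat2 and HTSeq on mm9, with versions and the strand setting not given in the sources used here. The deposited values are raw read counts per gene symbol, 1 file per mouse. The members and the lists of related and marker genes were chosen with earlier results of these data known. In each comparison the libraries of its groups were fitted alone with edgeR 4.0.16 in R 4.3.3 (quasi-likelihood test, TMM, a minimum of 10 counts in 3 or more libraries, Benjamini-Hochberg adjustment over all genes tested, threshold 0.05). All 10 members passed the filter in all 12 comparisons. SE is the log2 fold change over the square root of F, and 95% intervals are 1.96 SE to each side. RPKM used GENCODE vM1 exon lengths. P-values measure the spread between these mice only. Deviations of mice with the same replicate number correlated positively for every number only in CFA_1d and CFA_control (r of 0.115, 0.249 and 0.447). Even there CFA_1d replicate 2 matched CFA_control replicate 1 best, and the numbers are not shown to pair mice. All members were named, and from each list up to 3 called genes with the highest and 3 with the lowest log2 fold change per comparison with vehicle. Alternatives were DESeq2 1.42.0, its size factors, no filter, a replicate block, 1 fit over 31 libraries, leaving out each mouse, and, added after values were seen, 1 fit over 28 libraries. The scripts were tested on simulated data.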

Additional observations from a re-analysis of the deposited data

Results flagged for a closer look

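Among the members, 6 values lay far from the other 3 mice of their group in log2 CPM, by a gap over the range of the group above 0.829 (Dixon's critical value for 4), in 40 groups of 4 tested. Chance alone passes this limit in about 1 in 20 groups. In 2d_post_col replicate 4, Fbxo32 (0.845), Gadd45a (0.833), Mt1 (0.922) and Mt2 (0.943) were the lowest of their group. Gadd45a was highest in 12d_post_col replicate 4 (0.848) and lowest in C_1C replicate 1 (0.862, at 9.34 CPM).

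Members also differed between times after the same agent. From CFA_1d to CFA_5d the log2 fold changes with an edgeR adjusted p under 0.05 were −2.80 for Fbxo32 and −3.45 for Gadd45a. From MM_Co_6d to 12d_post_col they were 1.60 for Klf15, −2.68 for Cdkn1a, −3.14 for Gadd45a, −1.39 for Mt1, −1.50 for Mt2 and 0.99 for Fkbp5.

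Outside the gene counts, the share of uniquely aligned reads that fell on more than 1 gene was at least 0.559% in the 10U Col groups, above every other library. Its part in the members' differences from Contr was not tested.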

How the results depend on the processing

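Of the 14 calls of members, 14 were kept by DESeq2 (31 called) and with its size factors, 13 without the low-count filter, 12 with a replicate block (21 called), 8 in 1 fit over 31 libraries (19 called) and 12 in the fit over 28 libraries added after values were seen (30 called). In CFA_1d against CFA_control, 0 became 2 with DESeq2, 1 over 31 and 5 over 28 libraries, and 0 to 1 leaving out 1 mouse. In CFA_5d against CFA_control, 0 became 3 with DESeq2, 1 over 28 libraries, and 0 to 6 leaving out 1 mouse. In 2d_post_col against Contr, 0 became 4 with DESeq2, 4 over 31, 5 over 28 libraries, 7 with the replicate block, and 0 to 8 leaving out 1 mouse. In MM_Co_6d against Contr, 6 became 3 over 31 libraries, 5 over 28 libraries (without Fkbp5), 5 with the block (without Mt1), and 3 to 6 leaving out 1 mouse. From CFA_1d to CFA_5d, 2 became 6 with DESeq2, 5 over 31, 6 over 28 libraries, 1 with the block, and 0 to 6 leaving out 1 mouse. From 2d_post_col to MM_Co_6d, 0 became 3 with DESeq2, 3 over 31, 3 over 28 libraries, 2 with the block, and 0 to 4 leaving out 1 mouse. From MM_Co_6d to 12d_post_col, 6 became 3 over 31 libraries, 5 over 28 libraries (without Fkbp5), and 0 to 7 leaving out 1 mouse. Between C_RPC and C_1C, 0 became 1 with DESeq2. Leaving out 1 mouse turned the direction of Fbxo32 in CFA_1d (log2 fold change −0.20 to 1.53) and of Fbxo32 (−0.094 to 0.648) and Trim63 (−0.061 to 0.631) in MM_Co_6d, none of them called. Over all comparisons, 31 of the 69 pairs of member and comparison with an unadjusted p of 0.05 or more changed sign in some alternative, 15 of them in one other than leaving out a mouse. The cause of these shifts was not tested, beyond the fewer or more mice behind each fit. Where 1 group had 4 mice and the other 3, replicate 4 adds nothing to the difference in the block fit. The block counts of such comparisons, 2d_post_col against Contr among them, therefore do not rest on that mouse. The replicate numbers are not shown to pair mice in any comparison. In CFA_1d against CFA_control the replicate block changed no call (0 called). In the other comparisons mice of the same number deviated with r from −0.363 to 0.528. The lowest member count was 133 reads, and what depth limits was not tested.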
